A study of Drosophila melanogaster with 42 samples.

Results

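The heads of male F1 flies from w1118 fathers that had been restrained were compared with the heads of F1 males from unrestrained w1118 fathers. These are the 10 libraries, of 42 in the series, whose labels give head as the tissue and w1118 as the genotype of the father. In 5 of them the father had been exposed to restraint stress in 3 sessions of 10 h, and in 5 the father had been kept freely without medium. The mothers were w1118 in every cross, so all 10 libraries come from flies with the same white allele, and the F1 males themselves were never restrained. Each library was made from 50 F1 males, 5 to 6 days old in the sample labels, while other descriptions of the study give slightly different ages. Flies had been kept under a cycle of light and dark, and the time of day at which they were frozen was not found in the labels or methods. Separate crosses for the separate pools are not stated either, and p-values therefore measure how much these pools vary. The 10 head libraries with dATF-2KO fathers, 5 restrained and 5 unrestrained, were used only to ask whether the response differed. That genotype is the father's and rests on the labels. Sons of dATF-2KO fathers and w1118 mothers can carry a mutant copy themselves. The father's genotype and the sons' own therefore cannot be told apart in that comparison.

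dATF-2 is the fly homologue of the stress-responsive transcription factor ATF-2/ATF-7, which p38 kinases phosphorylate and which takes part in the assembly of heterochromatin. The F1 heads were measured to ask what stress of the father leaves in the next generation. A fly head holds the brain, the compound eyes and ocelli, antennae, fat body and muscle, and RNA from whole heads mixes all of them. In such bulk samples fewer cells of a type and less RNA per cell cannot be told apart.

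Levels are given as FPKM, fragments scaled to transcript length and to library size, the latter by a scaling done across a set of libraries. These values keep no read counts. FPKM summed over genes ranged from 722932 to 744159 in restrained libraries and from 707383 to 724046 in unrestrained ones (exact permutation test, two-sided p = 0.0159, n = 5 each). Relative depth was read from the value of 1 read in genes of low level, and so includes that scaling. It ranged over the 10 libraries from 90.9 to 107.3% of that of unrestrained replicate 1. Markers of the head were present: all 32 photoreceptor markers and all 16 neuron markers averaged at least 1 FPKM over the 10 libraries, with ninaE, the main rhodopsin, at 19910 FPKM. Of 34 testis markers 20 averaged under 1 FPKM, the highest of the others being sowah at 22.0 FPKM. Under 1 FPKM were also 20 of 28 markers of the accessory gland and ejaculatory duct, called accessory gland markers for short. In that list PebIII, Obp56g and Est-6 were at 4532, 532 and 383 FPKM and the next gene at 19.5 FPKM. PebIII thus made up most of the summed level given next. The summed level of the testis markers ranged from 35.4 to 57.2 FPKM in the restrained and from 42.5 to 91.8 FPKM in the unrestrained libraries, and that of the accessory gland markers from 5414 to 5836 and from 5222 to 5602 FPKM. All 14 testis markers tested had a negative log2 change (median -0.35), with 0 at an unadjusted p under 0.05 (limma). Of 8 accessory gland markers tested, 4 had a positive and 4 a negative log2 change. The part of both marker sets in the results was not tested beyond the covariate fits reported with the small changes. Unrestrained replicate 3 stood apart, with a median absolute deviation from its group of 0.0876 on the log2 scale, against 0.0487 to 0.0563 in the other unrestrained libraries and 0.0501 to 0.0761 in the restrained ones. Results that lean on this library are given with and without it.

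Few genes differed by a large factor between heads with restrained and unrestrained fathers. Of 9924 genes that averaged at least 1 FPKM, 5 were higher (0.0504%) and 4 were lower (0.0403%) by at least 1.4-fold at an adjusted p under 0.05 (limma, Benjamini-Hochberg adjustment over all genes tested). The study used Cuffdiff with a 1.4-fold limit and a false discovery rate under 0.05, and reported no such genes in head samples. The higher genes were the neuronal RNA-binding protein gene fne, the translational regulator gene mei-P26, noe, CR34335 and CG33640. The lower genes were 3 small structural RNAs, snRNA:U12:73B, snoRNA:MeU5-C46 and RNaseMRP:RNA, and the gene CG34264. In each of these 9 genes every restrained library lay on one side of every unrestrained library, as did 271 genes (2.73%) with all restrained libraries above and 267 (2.69%) with all below among those tested.

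The RNA-binding protein Fne belongs to the ELAV family, which in neurons sets alternative splicing and 3' end choice. Its gene, on the X chromosome of dm3 from 12811510 to 12844450, was at 56.6, 55.2, 62.4, 64.1 and 58.1 FPKM in the restrained libraries, replicates 1 to 5. In the unrestrained libraries fne was at 43.7, 43.0, 34.8, 41.5 and 43.2 FPKM. The lowest restrained value thus lay well above the highest unrestrained one, and replicate 3 was the lowest of the unrestrained group. The log2 change of fne was 0.52 (standard error 0.07, adjusted p = 0.00700 from limma). Its relatives moved less: elav, the pan-neuronal founder of the family, averaged 40.9 ± 1.55 FPKM in restrained and 37.1 ± 3.41 FPKM in unrestrained libraries (SD, n = 5 each, log2 change 0.14, limma adjusted p = 0.290), and Rbp9 averaged 246 ± 3.13 and 245 ± 7.36 FPKM (SD, n = 5 each, log2 change 0.01, limma adjusted p = 0.917).

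Mei-P26 is a TRIM-NHL protein known for repressing translation in the fly germ line. mei-P26, on the X chromosome from 9057288 to 9083342, was at 23.9, 23.3, 26.3, 24.2 and 25.5 FPKM with restrained fathers. With unrestrained fathers it was at 18.1, 17.4, 14.2, 17.01 and 18.3 FPKM. These groups did not overlap, the difference on the log2 scale being 0.52 (standard error 0.07, limma adjusted p = 0.00700). Among the other TRIM-NHL genes, brat, a translational repressor active in neural stem cells, averaged 12.2 ± 0.14 FPKM in restrained and 10.5 ± 0.80 FPKM in unrestrained libraries without passing the test (SD, n = 5 each, log2 change 0.21, limma adjusted p = 0.0743). wech averaged 12.3 ± 0.55 and 11.5 ± 0.65 FPKM (SD, n = 5 each, limma adjusted p = 0.365). Without unrestrained replicate 3, fne and mei-P26 both had log2 changes of 0.46, under the 1.4-fold limit, with adjusted p of 0.00203 and 0.00109 from limma. With the FPKM sums set equal or with array quality weights, fne also came to lie under that limit.

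CR34335 and noe are genes of high level. CR34335, whose name marks it as a noncoding RNA gene, was at 14176, 14351, 15942, 16281 and 15502 FPKM with restrained fathers and at 8355, 7767, 3384, 6645 and 8151 FPKM with unrestrained fathers. On the log2 scale it was 1.22 higher (limma adjusted p = 0.0337, standard error 0.22), and the spread within the unrestrained group was wide. Without unrestrained replicate 3 the change was 0.98 (adjusted p = 9.24e-04 from limma). noe was at 1741, 1839, 1926, 2025 and 2006 FPKM with restrained fathers and at 1390, 1317, 956, 1234 and 1382 FPKM with unrestrained fathers (log2 change 0.61, standard error 0.10, adjusted p = 0.0193 from limma). For both genes unrestrained replicate 3 was the lowest library. CG33640 is a gene of low level, at 1.67 ± 0.247 FPKM in restrained and 0.819 ± 0.195 FPKM in unrestrained libraries (SD, n = 5 each, log2 change 0.72, limma adjusted p = 0.0361), and the log2(FPKM + 0.5) scale understates changes this low. The call of CR34335 held only without unrestrained replicate 1, 3 or 5 (adjusted p from 0.0583 to 0.0890 without any other), that of CG33640 only without unrestrained replicate 1 (0.0549 to 0.106) and that of noe was lost without restrained replicate 3 or 5 or unrestrained replicate 4 (0.0554 to 0.0589). The calls of CR34335 and CG33640 were also lost with quantile normalization and either marker covariate, that of CR34335 with robust empirical Bayes and that of noe with the accessory gland covariate.

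The small RNAs that fell have roles in RNA processing. U12 belongs to the minor spliceosome, which removes a rare class of introns, the RNA of RNase MRP cuts the precursor of ribosomal RNA, and snoRNA:MeU5-C46 is named as a guide for methylation of the spliceosomal U5 RNA. snRNA:U12:73B was at 6.62, 9.73, 10.6, 9.07 and 6.73 FPKM with restrained fathers and at 20.6, 17.4, 12.6, 15.0 and 17.6 FPKM with unrestrained fathers (log2 change -0.93, standard error 0.16, adjusted p = 0.0249 from limma). RNaseMRP:RNA was at 127, 99.7, 111, 93.5 and 110 FPKM with restrained fathers, below all of 153, 139, 189, 154 and 147 FPKM with unrestrained fathers (log2 change -0.53, standard error 0.10, adjusted p = 0.0337 from limma). snoRNA:MeU5-C46 averaged 39.0 ± 6.48 FPKM in restrained and 62.3 ± 9.34 FPKM in unrestrained libraries (SD, n = 5 each, log2 change -0.67, limma adjusted p = 0.0361). snRNA:U11, the partner of U12 in the minor spliceosome, was lower as well, at 114 ± 7.74 FPKM in restrained and 157 ± 22.9 FPKM in unrestrained libraries, within 1.4-fold (SD, n = 5 each, log2 change -0.45, limma adjusted p = 0.0495, a call that held only without unrestrained replicate 3 or 5 and was lost with a pseudocount of 1, no filter, median scaling, robust empirical Bayes or either marker covariate). Of 15 small nuclear RNAs tested 2 were lower and 0 higher by limma's adjusted p (4 and 0 at an unadjusted p under 0.05). Of 235 small nucleolar RNAs 1 was lower and 0 higher (15 and 8 at an unadjusted p under 0.05). Over all genes tested 0.464% were lower and 0.645% higher by limma's adjusted p. At an unadjusted p under 0.05 these shares were 8.69% and 7.06%.

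Most of these genes share a deposited locus with other genes. In the deposited coordinates snRNA:U12:73B shares its locus with Baldspot, snoRNA:MeU5-C46 with CG1142, noe with blot, CG34264 with fwd, and CR34335, CG33640 and RNaseMRP:RNA with several genes each. None of the neighbours tested was called (log2 changes from -0.04 to 0.26, the highest beside CR34335). fne and mei-P26 have a locus to themselves. The sources name poly(A) selection, and it is not stated whether reads were counted by strand. Levels of small structural RNAs and of genes that share a locus are therefore uncertain. When 1 library was left out, the call of snRNA:U12:73B held only without restrained replicate 1, 2 or 3 or unrestrained replicate 3, that of snoRNA:MeU5-C46 only without restrained replicate 1 or unrestrained replicate 3, that of RNaseMRP:RNA only without restrained replicate 1 and that of CG34264 only without unrestrained replicate 3. The adjusted p without any of the other libraries ranged from 0.0313 to 0.115, the lowest being RNaseMRP:RNA without unrestrained replicate 3, where its log2 change of -0.46 was within 1.4-fold. Calls were also lost with no filter or robust empirical Bayes (snoRNA:MeU5-C46), array quality weights (RNaseMRP:RNA), a pseudocount of 1 (CG34264) and, for all 4, either marker covariate.

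**Figure D1:**
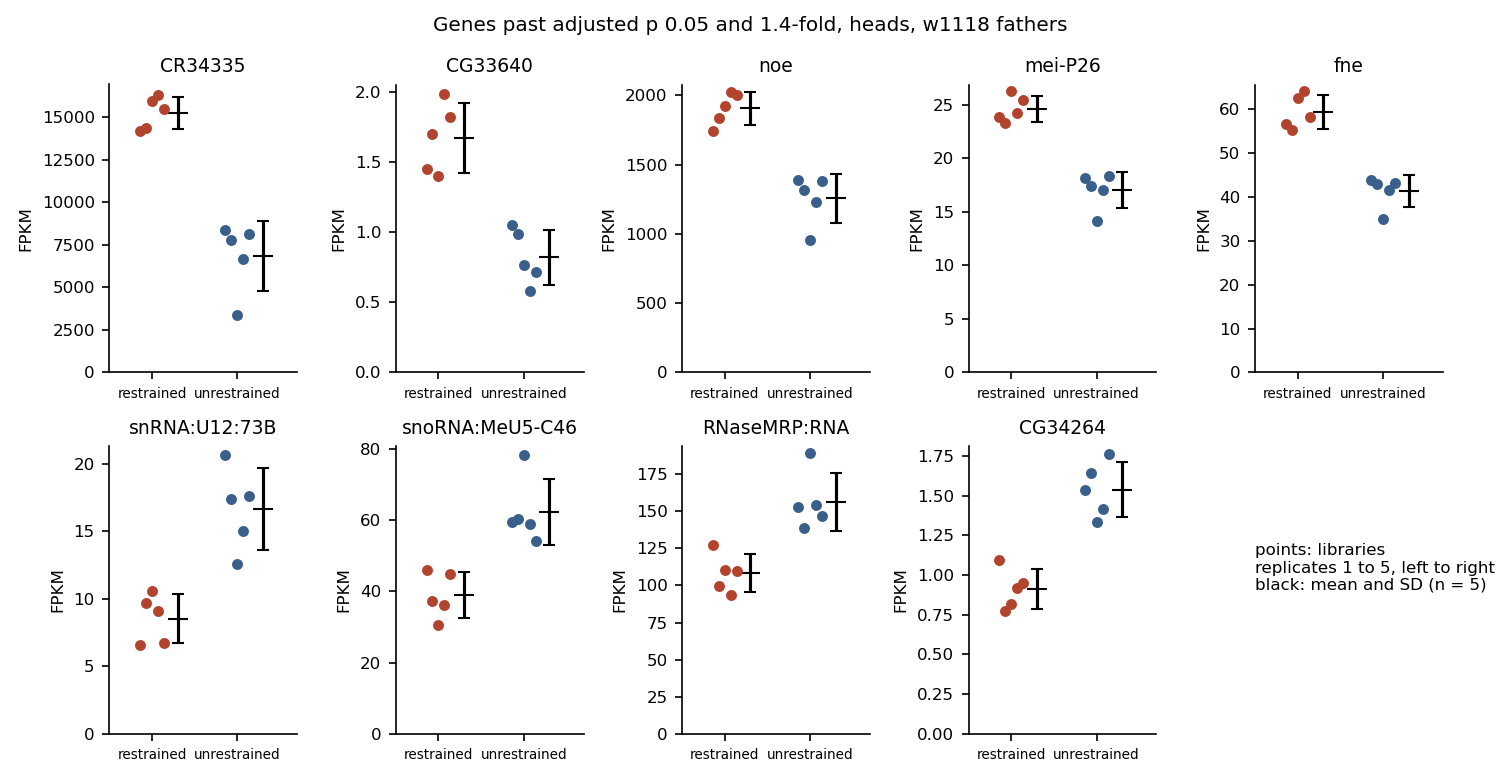
FPKM (y axes, from 0, a scale for each gene) in the 5 libraries with restrained and the 5 with unrestrained fathers for the 9 genes past both thresholds, with points for replicates 1 to 5 from left to right and the mean ± SD in black. In each panel the groups do not overlap, and unrestrained replicate 3 is the lowest point for CR34335 (3384 FPKM), noe (956 FPKM), mei-P26 (14.2 FPKM) and fne (34.8 FPKM).

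The plot of single libraries for these 9 genes shows a wide gap for mei-P26 and fne and a wide spread of the unrestrained group for CR34335. Beneath the 1.4-fold limit lay a larger set of small changes. Whatever the fold, 64 genes rose (0.645%) and 46 fell (0.464%) at an adjusted p under 0.05 (limma), with a median absolute log2 change of 0.21, or 1.16-fold. At an unadjusted p under 0.05, 701 genes were higher (7.06%) and 862 lower (8.69%). The median over all genes tested was -0.01. Leaving out 1 library gave between 20 and 89 higher and between 21 and 52 lower genes. The higher count moved by over 1.5 times without restrained replicate 2 (28), 3 (20), 4 (39) or 5 (27) or unrestrained replicate 1 (41), 2 (24) or 4 (24), and the lower count without restrained replicate 2 (22), 3 (21) or 5 (24) or unrestrained replicate 1 (25), 2 (25), 4 (21) or 5 (27). With the FPKM sums set equal 47 genes were higher and 248 lower. Of the 110 genes, 32 stayed called with the mean level of the accessory gland markers in the model and 50 with that of the testis markers. Of 52 called genes followed by name, 17 kept their call with each library left out, under the other scalings, filters and pseudocounts and with either covariate, namely trpl, ninaC, rdgC, tim, Slob, Eaat2, cac, roX1, His3.3B, Rbp2, Tis11, fend, CG43674, CG17005, sqa, CG14186 and Ubpy. The others lost theirs under at least 1 of these. With a block for replicate number in the model, 0 of the 110 genes stayed called, these 17 included. Counts at an unadjusted p given for the gene lists that follow stand beside 7.06% higher and 8.69% lower over all genes.

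Some genes of the light response, trpl, trp, ninaC, rdgC, chp, Rh3 and Rh5, were lower in heads with restrained fathers. Fly photoreceptors detect light with rhodopsins, which through a G protein and the phospholipase C NorpA open the Trp and Trpl channels in the rhabdomeres. Of 32 photoreceptor genes tested, 7 were lower and 0 higher at an adjusted p under 0.05 (limma), and at an unadjusted p under 0.05 they were 15 and 2, the higher ones being norpA (log2 change 0.11) and inaF-B (0.09). The median log2 change of the list was -0.05, against -0.01 over all genes. The 7 were the channel genes trpl and trp, the rhodopsin genes Rh3 and Rh5, the myosin kinase gene ninaC, the rhodopsin phosphatase gene rdgC and chp, which encodes the rhabdomere adhesion protein chaoptin.

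trpl changed the most. It was at 899, 896, 863, 820 and 888 FPKM with restrained fathers and at 1041, 1015, 992, 1040 and 1048 FPKM with unrestrained fathers, and the gap between the groups was wider than the range within either (log2 change -0.23, standard error 0.03, adjusted p = 0.00700 from limma). ninaC was at 823, 816, 795, 797 and 807 FPKM with restrained fathers and at 889, 893, 911, 916 and 910 FPKM with unrestrained fathers (log2 change -0.16, standard error 0.02, adjusted p = 0.00392 from limma). rdgC was at 90.9, 91.0, 88.9, 90.9 and 89.1 FPKM with restrained fathers, against 99.1, 99.5, 106, 99.1 and 102 FPKM with unrestrained fathers (log2 change -0.16, standard error 0.02, adjusted p = 0.00752 from limma). In these genes unrestrained replicate 3 was not what parted the groups, being the lowest of its group in trpl and the highest in rdgC. chp averaged 378 ± 6.45 FPKM in restrained and 418 ± 10.2 FPKM in unrestrained libraries (SD, n = 5 each, log2 change -0.14, limma adjusted p = 0.0113).

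Among the rhodopsin genes Rh5 and Rh3 were called, while Rh4 changed as much as Rh3 without passing. Rh5, the blue-sensitive rhodopsin of a part of the R8 cells, was at 277, 275, 266, 290 and 270 FPKM with restrained fathers and at 312, 317, 339, 317 and 308 FPKM with unrestrained fathers (log2 change -0.21, standard error 0.03, adjusted p = 0.0132 from limma). Rh3, an ultraviolet-sensitive rhodopsin of a part of the R7 cells, was at 725, 713, 698, 722 and 703 FPKM with restrained fathers and at 784, 767, 767, 769 and 770 FPKM with unrestrained fathers (log2 change -0.12, standard error 0.02, adjusted p = 0.00901 from limma). Both genes were thus lower in each restrained library than in any unrestrained one. Rh4 and Rh6, the rhodopsins of the other R7 and R8 cells, averaged 664 ± 23.2 and 400 ± 19.9 FPKM in restrained and 720 ± 23.4 and 422 ± 4.89 FPKM in unrestrained libraries (SD, n = 5 each) and did not pass (log2 changes -0.12 and -0.08, limma adjusted p = 0.0926 and 0.269). The rhodopsin of the outer cells, ninaE, averaged 19844 ± 322 and 19977 ± 246 FPKM (SD, n = 5 each, log2 change -0.01, limma adjusted p = 0.848), and Rh2 of the ocelli 207 ± 5.75 and 201 ± 3.35 FPKM (SD, n = 5 each, log2 change 0.04, limma adjusted p = 0.437). The 95% interval of the difference for ninaE spanned 0, and differences between the rhodopsins were not tested. trp, Rh2, Rh4, Rh6 and ninaE were added to complete the family after their values had been seen.

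The summed level of the photoreceptor list, most of it from ninaE and the arrestins, ranged from 42338 to 43945 FPKM in restrained libraries and from 43504 to 44678 FPKM in unrestrained ones, which overlap. The part of cell content in these small differences was not tested. Without unrestrained replicate 3, 6 photoreceptor genes were lower and 0 higher (limma, 14 and 3 at an unadjusted p under 0.05). The number of lower genes was 7 with median scaling, 9 with quantile normalization and 13 with the FPKM sums set equal. Over all 9924 genes tested, 38, 46 and 248 were lower in these settings, against 46 with the values as deposited. The call of trp held only without restrained replicate 1 or 4 (adjusted p from 0.0523 to 0.110 without any of the other 8 libraries), and with the accessory gland covariate Rh3, Rh5 and chp lay just above the threshold (0.0501 to 0.0615).

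Other genes of the eye and of glia stood near these. bw encodes a transporter of eye pigment precursors whose partner, the White protein, is missing in w1118 flies. It averaged 32.1 ± 0.56 FPKM in restrained and 35.5 ± 1.10 FPKM in unrestrained libraries (SD, n = 5 each, log2 change -0.14, limma adjusted p = 0.0300), a call that held only without restrained replicate 1 or unrestrained replicate 3 or 4 (0.0589 to 0.0890 without any other). It was the only one of 19 eye pigment genes tested to pass, and 2 were lower and 1 was higher at an unadjusted p under 0.05. white itself, listed as w, was between 0.051 and 0.194 FPKM in restrained and between 0.087 and 0.116 FPKM in unrestrained libraries, below the minimum for testing. Eaat2, an amino acid transporter of glia, was at 146, 144, 146, 144 and 144.8 FPKM with restrained fathers and at 159, 159, 170, 159 and 161 FPKM with unrestrained fathers (log2 change -0.16, standard error 0.02, adjusted p = 0.00787 from limma). It was the only one of 13 glial markers to pass, and 3 were lower with 0 higher when p was not adjusted, and their summed level ranged from 1996 to 2028 FPKM in restrained and from 1984 to 2037 FPKM in unrestrained libraries.

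The circadian clock gene tim was lower in heads with restrained fathers. In the fly clock Clk and Cyc switch on per and tim, whose proteins return to the nucleus and shut Clk and Cyc off, and the kinase Doubletime, from dco, marks Per for decay. tim was at 129, 125, 125, 116 and 125 FPKM with restrained fathers and at 146, 152, 150, 153 and 151 FPKM with unrestrained fathers. The highest restrained library lay below the lowest unrestrained one by more than the SD of either group, 4.92 and 2.71 FPKM. The log2 change of tim was -0.28 (standard error 0.03, adjusted p = 0.00392 from limma), and the call held with each library left out and under all the scalings tried.

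Of the 17 clock genes tested 3 were lower and 0 higher at an adjusted p under 0.05 (limma), and at an unadjusted p under 0.05 they were 6 and 1. Slob, which encodes a partner of the Slowpoke potassium channel and cycles in heads, averaged 203 ± 1.85 FPKM in restrained and 224 ± 2.66 FPKM in unrestrained libraries (SD, n = 5 each, log2 change -0.14, limma adjusted p = 0.00392). per averaged 31.9 ± 0.74 and 35.1 ± 1.20 FPKM (SD, n = 5 each, log2 change -0.14, limma adjusted p = 0.0472). The call of per held without unrestrained replicate 3 and was lost without any of the other 9 libraries (0.0746 to 0.114) and with no filter, median scaling or quantile normalization. The repressor gene cwo was lower in every restrained library, at 32.2 ± 0.96 FPKM in restrained and 34.8 ± 0.56 FPKM in unrestrained libraries, but did not pass (SD, n = 5 each, limma adjusted p = 0.0578), and dco averaged 41.5 ± 0.84 and 44.4 ± 0.90 FPKM (SD, n = 5 each, limma adjusted p = 0.0746). The activator genes were close between the groups. Clk averaged 9.26 ± 0.62 FPKM in restrained and 8.88 ± 0.48 FPKM in unrestrained libraries (SD, n = 5 each, log2 change 0.06, limma adjusted p = 0.646), and cyc 24.7 ± 0.43 and 24.4 ± 1.11 FPKM (SD, n = 5 each, log2 change 0.02, limma adjusted p = 0.851). Log2 changes of the other clock genes with a known part in the loops, none of which passed, were -0.06 for vri, 0.08 for Pdp1, -0.03 for the light receptor gene cry and -0.16 for the neuropeptide gene Pdf. Clock transcripts swing with the hour, and the part of sampling time in these differences was not tested.

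**Figure D2:**
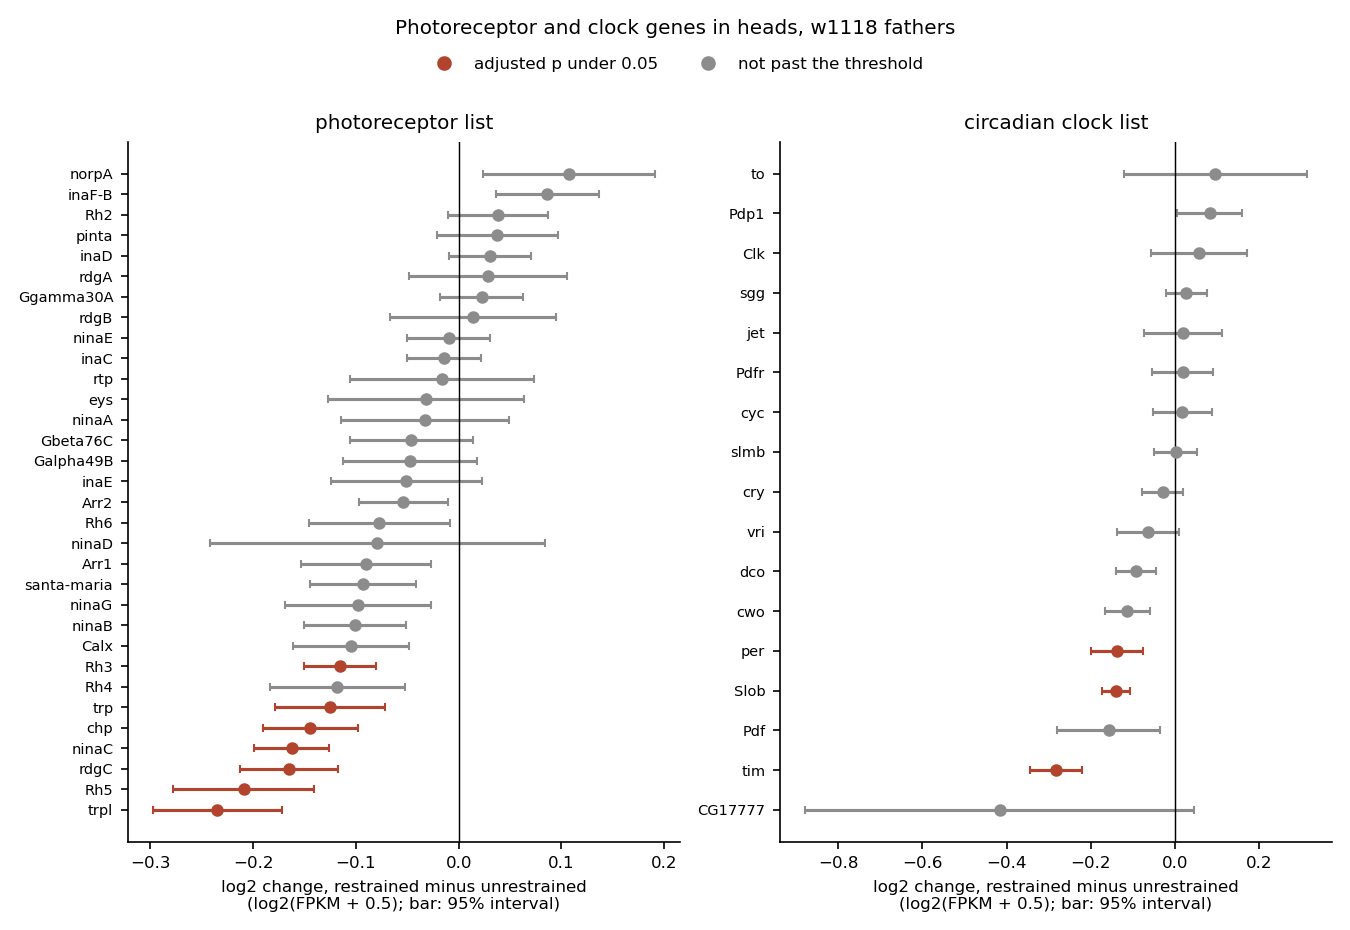
Log2 change in FPKM (x axis, restrained minus unrestrained fathers, on the log2(FPKM + 0.5) scale) with its 95% interval for each tested gene of the photoreceptor list and of the clock list, red where the adjusted p was under 0.05. The 7 photoreceptor genes and 3 clock genes in red all lie left of 0, with trpl at -0.23 and tim at -0.28.

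In the forest plot of both lists the called genes sit at the lower end, while ninaE, Clk and cyc lie near 0. Among regulators of RNA in neurons, fne, A2bp1, Syp, rin and Unr were higher. Of 23 such genes tested, 5 were higher and 0 lower at an adjusted p under 0.05 (limma), and 12 were higher and 0 lower at an unadjusted p under 0.05. The median log2 change was 0.12. Besides fne these were the genes of the splicing factor A2bp1, the fly Rbfox, of Syp, a regulator of mRNA in neural stem cells and synapses, of rin, the homologue of the stress granule protein G3BP, and of Unr. Unr, which binds both mRNA and the roX RNAs, was at 48.8, 47.6, 53.0, 54.9 and 51.2 FPKM with restrained fathers, against 42.9, 41.6, 37.8, 41.4 and 42.9 FPKM with unrestrained fathers (log2 change 0.30, standard error 0.05, adjusted p = 0.0159 from limma). A2bp1 averaged 56.7 ± 1.66 FPKM in restrained and 48.8 ± 2.22 FPKM in unrestrained libraries (SD, n = 5 each, log2 change 0.21, limma adjusted p = 0.0198). Syp averaged 127 ± 3.28 and 110 ± 6.51 FPKM, and rin 43.5 ± 0.96 and 37.8 ± 2.31 FPKM (SD, n = 5 each, both log2 changes 0.20, limma adjusted p = 0.0447 and 0.0472). In all of these unrestrained replicate 3 was the lowest library. Imp, an mRNA-binding protein gene of neurons and germ cells, averaged 9.10 ± 0.42 FPKM in restrained and 7.17 ± 0.75 FPKM in unrestrained libraries and lay just above the threshold (SD, n = 5 each, log2 change 0.33, limma adjusted p = 0.0542). Without unrestrained replicate 3 the number of higher genes of this list was 9, with 12 higher and 1 lower at an unadjusted p under 0.05 and a median log2 change of 0.07. The calls of Syp and rin each held only without unrestrained replicate 3 or 5 (adjusted p from 0.0634 to 0.120 without any other). That of A2bp1 was lost without restrained replicate 2 or 3 or unrestrained replicate 2 or 4, and that of Unr without restrained replicate 3 or unrestrained replicate 4 (0.0505 to 0.0606). Setting the FPKM sums equal or using no filter ended the calls of Syp and rin, and quantile normalization that of Syp.

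A few channel genes of nerve cells were higher, cac, Sh and SK. Of 24 voltage-gated and related channel genes these 3 were higher and 0 lower (limma, 6 and 4 at an unadjusted p under 0.05), with a median log2 change of 0.02. cac encodes the calcium channel that triggers release of transmitter. It was at 40.7, 39.3, 41.5, 38.6 and 41.6 FPKM with restrained fathers and at 33.1, 32.8, 28.7, 32.5 and 34.03 FPKM with unrestrained fathers (log2 change 0.32, standard error 0.04, adjusted p = 0.00901 from limma). Sh, the Shaker potassium channel, averaged 82.4 ± 4.70 FPKM in restrained and 67.1 ± 3.71 FPKM in unrestrained libraries (SD, n = 5 each, log2 change 0.29, limma adjusted p = 0.0208). SK, a potassium channel opened by calcium, averaged 48.6 ± 1.84 and 43.0 ± 0.88 FPKM (SD, n = 5 each, log2 change 0.17, limma adjusted p = 0.0208). The sodium channel gene para averaged 42.6 ± 3.00 FPKM in restrained and 36.0 ± 3.12 FPKM in unrestrained libraries and did not pass (SD, n = 5 each, log2 change 0.24, limma adjusted p = 0.126). All 4 of these genes lie on the X chromosome. The call of cac held with each library left out, while that of Sh was lost without restrained replicate 3 or 5 or unrestrained replicate 2 or 4 and that of SK without replicate 2 or 3 of the restrained or 2 or 4 of the unrestrained group (adjusted p from 0.0508 to 0.0611). That of SK was also lost with the FPKM sums set equal.

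Receptors and signalling genes called in the same direction were few. Of 37 transmitter receptor genes 2 were higher and 0 lower (limma, 6 and 6 at an unadjusted p under 0.05), the octopamine receptor gene Octbeta2R at 11.9 ± 0.54 FPKM in restrained and 9.42 ± 0.81 FPKM in unrestrained libraries (SD, n = 5 each, log2 change 0.32, limma adjusted p = 0.0276), and the nicotinic receptor subunit gene nAcRalpha-30D at 23.6 ± 1.26 and 20.02 ± 0.99 FPKM (SD, n = 5 each, log2 change 0.23, limma adjusted p = 0.0386). dnc, the cyclic AMP phosphodiesterase known from learning mutants, was at 41.0, 40.7, 42.2, 40.2 and 40.9 FPKM with restrained fathers and at 34.9, 32.8, 26.6, 33.5 and 34.7 FPKM with unrestrained fathers (log2 change 0.34, standard error 0.07, adjusted p = 0.0447 from limma). CanA-14F, a catalytic subunit of calcineurin, averaged 41.6 ± 2.03 and 33.0 ± 2.89 FPKM (SD, n = 5 each, log2 change 0.33, limma adjusted p = 0.0361), and scrt, a zinc finger factor of neurons, 32.3 ± 0.805 and 25.0 ± 2.10 FPKM (SD, n = 5 each, log2 change 0.37, limma adjusted p = 0.0132). In each of these, as in cac, Sh and para, unrestrained replicate 3 was the lowest of its group, except for Octbeta2R. The dnc call was lost without any 1 library other than unrestrained replicate 3 (adjusted p from 0.0542 to 0.113) and came to 0.00142, at a log2 change of 0.27, without that replicate. The call of CanA-14F held only without unrestrained replicate 1 or 3, that of nAcRalpha-30D only without restrained replicate 4 or unrestrained replicate 3, and that of Octbeta2R only without restrained replicate 1 or unrestrained replicate 3 or 4 (0.0505 to 0.106 without any other). With no filter the calls of dnc and nAcRalpha-30D were lost, and with the FPKM sums set equal that of nAcRalpha-30D.

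Of 16 neuron markers 2 passed, fne and cac. At an unadjusted p under 0.05, 8 were higher and 1 lower, 13 had a positive and 3 a negative log2 change, and the median was 0.11. Their summed level ranged from 2503 to 2595 FPKM in restrained and from 2348 to 2504 FPKM in unrestrained libraries. The part of neuronal RNA content was not tested. Of 26 genes of synaptic vesicles and active zones, cac alone passed (3 higher and 6 lower at an unadjusted p under 0.05, median log2 change -0.01). None of 34 neuropeptide genes, 40 adhesion and guidance genes or 16 genes of monoamine synthesis and transport passed (limma, 1 higher and 3 lower, 6 and 4, and 0 and 1 at an unadjusted p under 0.05).

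**Figure D3:**
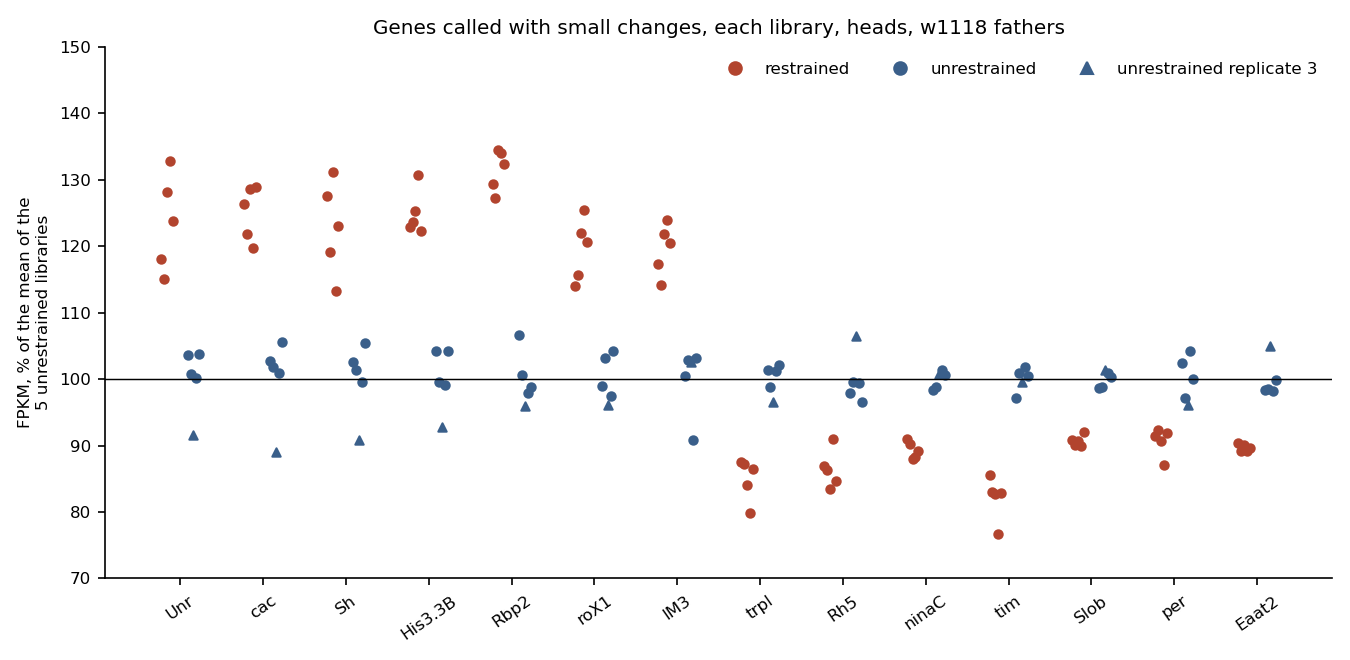
FPKM in each library as a percentage of the mean of the 5 unrestrained libraries (y axis, 70 to 150%) for 14 called genes, with restrained libraries in red left of unrestrained ones in blue and unrestrained replicate 3 as a triangle. The groups do not overlap in any of these genes, and the triangle is the lowest unrestrained point in Unr, cac, Sh, His3.3B, Rbp2, roX1, trpl and per.

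The plot of single libraries relative to the unrestrained mean sets both directions side by side. The X chromosome held more of the higher genes than its share. Of 1620 X-linked genes tested 24 were higher (1.48%) and 2 lower (0.123%) at an adjusted p under 0.05, against 40 higher (0.482%) and 44 lower (0.530%) of 8304 on the other arms and unplaced (limma). At an unadjusted p under 0.05, 12.0% of X-linked genes were higher and 5.62% lower, against 6.09% and 9.28% elsewhere. Among the autosomal arms 2L, 2R, 3L and 3R the share of higher genes ran only from 5.92 to 6.37%. The median log2 change was 0.01 for X-linked genes and -0.01 for the rest. Without unrestrained replicate 3 the shares at an unadjusted p under 0.05 were 11.1% higher and 5.19% lower on the X chromosome and 6.45% and 8.89% elsewhere. With the FPKM sums set equal, more X-linked genes were lower (13.02%) than higher (5.62%), and elsewhere 20.3% were lower and 2.66% higher. Genes of one chromosome are not independent, and no test was made of this pattern.

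In the bar plot by arm the X chromosome lies above 2L, 2R, 3L and 3R in either set of libraries, while without unrestrained replicate 3 the 56 heterochromatic and unplaced genes, 10.7% of them higher, come close to it. Males raise the output of their single X with the MSL complex, which is built on the noncoding RNAs roX1 and roX2. roX1 was at 509, 516, 545, 560 and 539 FPKM with restrained fathers and at 442, 461, 429, 435 and 466 FPKM with unrestrained fathers (log2 change 0.26, standard error 0.03, adjusted p = 0.00700 from limma). roX2 averaged 103.9 ± 4.34 and 111 ± 8.70 FPKM, the groups overlapping (SD, n = 5 each, log2 change -0.09, limma adjusted p = 0.425). Of 8 genes of dosage compensation roX1 and Unr were higher and 0 lower (limma, 2 and 0 at an unadjusted p under 0.05), and for msl-2, the male-specific subunit, the log2 change was 0.00 (limma adjusted p = 0.999).

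Some noncoding RNAs were higher. Of 9 genes tested in a list of noncoding and nuclear RNAs, 4 were higher and 0 lower (limma, 4 and 1 at an unadjusted p under 0.05), namely CR34335, noe, roX1 and CR31451. CR31451 was at 179, 174, 185, 203 and 195 FPKM with restrained fathers and at 155, 154, 147.5, 157 and 157 FPKM with unrestrained fathers (log2 change 0.28, standard error 0.04, adjusted p = 0.0113 from limma). The heat-induced nuclear RNA Hsromega had a log2 change of -0.04 (limma adjusted p = 0.711). The summed level of the 9, nearly all of it CR34335 and noe, ranged from 16876 to 19399 FPKM in restrained and from 5223 to 10605 FPKM in unrestrained libraries.

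Several further called genes have general roles in gene expression. His3.3B encodes the replacement histone H3.3, which enters chromatin outside replication. It was at 504, 507, 514, 536 and 502 FPKM with restrained fathers and at 428, 408, 381, 407 and 428 FPKM with unrestrained fathers (log2 change 0.32, standard error 0.03, adjusted p = 0.00392 from limma). Rbp2 had the smallest adjusted p of all, at 67.2, 66.1, 69.8, 69.6 and 68.8 FPKM with restrained fathers and 55.4, 52.3, 49.8, 50.9 and 51.4 FPKM with unrestrained fathers (log2 change 0.39, standard error 0.03, adjusted p = 0.00106 from limma). Tis11, which binds AU-rich elements and speeds the decay of mRNA, averaged 27.5 ± 0.66 FPKM in restrained and 23.0 ± 0.96 FPKM in unrestrained libraries (SD, n = 5 each, log2 change 0.25, limma adjusted p = 0.00700). All 3 genes lie on the X chromosome, and their calls held with each library left out. Acf1, a subunit of chromatin remodelling complexes, averaged 6.18 ± 0.25 and 4.46 ± 0.51 FPKM (SD, n = 5 each, log2 change 0.43, limma adjusted p = 0.0228) and lost its call without restrained replicate 2, 3 or 5 or unrestrained replicate 2 or 4 (0.0518 to 0.0714). Also higher were fend (log2 change 0.40), CG43674 (0.39) and the serpin gene Spn88Eb (0.39), the last of which kept its call only without restrained replicate 1 (adjusted p from 0.0504 to 0.0855 without any other). Further lower genes were CG17005 (log2 change -0.47), sqa, a kinase gene of the myosin light chain kinase family (-0.29), CG14186 (-0.25) and the deubiquitinase gene Ubpy (-0.23), all called with each library left out (adjusted p from 0.00392 to 0.00901 with all libraries, limma).

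Ribosomal protein genes leaned upward by a small amount. Of 87 cytosolic ribosomal protein genes 1 was higher and 0 lower (limma, 26 and 1 at an unadjusted p under 0.05), with a median log2 change of 0.03. RpL36A averaged 1376 ± 54.7 FPKM in restrained and 1220 ± 40.8 FPKM in unrestrained libraries (SD, n = 5 each, log2 change 0.17, limma adjusted p = 0.0361), a call that held only without unrestrained replicate 3 (adjusted p from 0.0504 to 0.105 without any of the others). The counts depended on scaling. With quantile normalization 9 of the 87 genes were higher and 16 lower at an unadjusted p under 0.05 (limma, median log2 change -0.010). Over all genes that setting gave 7.18% higher and 7.73% lower (median -0.003). With the FPKM sums set equal 6 of the 87 were higher and 9 lower (median -0.006). Over all genes the shares were then 3.14% and 19.1% (median -0.043), so relative to all genes the list still lay higher. Hsc70-3, the chaperone BiP of the endoplasmic reticulum, averaged 160 ± 3.75 and 140 ± 7.42 FPKM (SD, n = 5 each, log2 change 0.19, limma adjusted p = 0.0361) and was the only one of 18 heat shock genes to pass (1 higher and 2 lower at an unadjusted p under 0.05). The call of Hsc70-3 held only without unrestrained replicate 1 or 3 (adjusted p from 0.0583 to 0.0974 without any other) and was lost with quantile normalization or with the FPKM sums set equal.

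IM3 and IM4, a pair of immune-induced peptide genes, were higher. Of 45 immune genes tested 2 were higher and 0 lower (limma, 15 and 2 at an unadjusted p under 0.05), with a median log2 change of 0.13. IM3, a short peptide released into the hemolymph by Toll signalling, was at 4286, 4172, 4453, 4529 and 4403 FPKM with restrained fathers and at 3672, 3763, 3747, 3321 and 3773 FPKM with unrestrained fathers (log2 change 0.26, standard error 0.04, adjusted p = 0.0136 from limma). IM4 averaged 3361 ± 107 and 2997 ± 110 FPKM (SD, n = 5 each, log2 change 0.17, limma adjusted p = 0.0361), and with quantile normalization its log2 change was -0.037 (limma adjusted p = 0.771). The drosocin gene Dro was at 3475, 3862, 3762, 5263 and 5026 FPKM with restrained fathers and at 2797, 3183, 3143, 2726 and 3099 FPKM with unrestrained fathers. Its groups did not overlap, and it did not pass (log2 change 0.50, standard error 0.12, limma adjusted p = 0.0756). Without restrained replicate 3 the adjusted p of IM3 was 0.0505, with quantile normalization 0 of the 45 genes passed (limma, 11 higher and 1 lower at an unadjusted p under 0.05), and the call of IM4 held only without restrained replicate 2 or unrestrained replicate 3 or 5 (adjusted p from 0.0734 to 0.105 without any other).

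RNA of the pathway that the study places in the restrained fathers was close to level in the heads of their sons. The study measured p38 phosphorylation and cytokine induction in the restrained males, in whole bodies or testes. RNA in heads of unrestrained sons does not measure either, so the pathway in the fathers was not tested here. Atf-2 itself, the dATF-2 gene, was at 68.5, 69.5, 69.9, 67.7 and 66.7 FPKM with restrained fathers and at 71.7, 74.0, 72.3, 74.7 and 74.6 FPKM with unrestrained fathers. The groups did not overlap, but the difference was small (log2 change -0.10, standard error 0.02, adjusted p = 0.0472 from limma), and the call held only without unrestrained replicate 3 among the libraries left out (adjusted p from 0.0552 to 0.127 without any of the others) and not with median scaling or quantile normalization. It was the only one of 21 genes of Atf-2 and the p38 and JNK kinases to pass, with 1 higher and 4 lower at an unadjusted p under 0.05. Mekk1, the kinase upstream of p38, averaged 15.9 ± 0.56 and 16.6 ± 1.13 FPKM (SD, n = 5 each, log2 change -0.06, limma adjusted p = 0.619), and puc, the phosphatase that JNK induces, 29.0 ± 0.90 and 31.6 ± 0.77 FPKM (SD, n = 5 each, log2 change -0.13, limma adjusted p = 0.0595).

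Genes of cytokine signalling did not stand out in the F1 heads either. The ligand gene upd3 was between 0.105 and 0.207 FPKM in restrained and between 0.099 and 0.185 FPKM in unrestrained libraries, below the minimum for testing. Of 10 JAK-STAT genes tested 0 passed (limma, 1 higher and 2 lower at an unadjusted p under 0.05), with log2 changes of 0.02 for the receptor gene dome, -0.06 for Stat92E and -0.06 for its feedback target Socs36E. Of 4 Turandot genes, which encode stress peptides of the hemolymph, 0 passed at either an adjusted or an unadjusted p under 0.05 (limma). TotA was at 1144, 917, 1098, 998 and 853 FPKM with restrained fathers and at 977, 1199, 978, 896 and 973 FPKM with unrestrained fathers, a log2 change of -0.01 with a standard error of 0.09. The Spätzle family gene spz3 averaged 3.24 ± 0.33 and 3.31 ± 0.27 FPKM (SD, n = 5 each, log2 change -0.03, limma adjusted p = 0.905).

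None of 23 heterochromatin genes passed (limma, 0 higher and 4 lower at an unadjusted p under 0.05). The H3K9 methyltransferase gene Su(var)3-9 averaged 1.65 ± 0.238 FPKM in restrained and 1.71 ± 0.165 FPKM in unrestrained libraries (SD, n = 5 each, limma adjusted p = 0.874). Genes of metabolism were likewise without a call. Beside 7.06% higher and 8.69% lower over all genes, of 16 glycolysis genes 2 were higher and 7 lower at an unadjusted p under 0.05, of 26 TCA cycle genes 2 and 5, of 31 genes of one-carbon, glycine, serine and threonine metabolism 2 and 0, and of 16 genes of starch, sucrose and galactose metabolism 0 and 2, and 0 of any of these lists passed limma's adjusted threshold. No list for fat body (16 tested), muscle (22), hemocytes (7), antenna (25), odorant-binding proteins (31) or cytochromes P450 (63) held a called gene (limma, 2 higher and 6 lower, 1 and 6, 0 and 0, 2 and 0, 4 and 1, and 4 and 5 at an unadjusted p under 0.05).

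Whether the head response was particular to w1118 fathers was asked by testing the difference between it and the response with dATF-2KO fathers. Mothers of both sets were w1118, each genotype has a table of its own that was scaled separately, and differences were therefore taken within a table first. Of 9808 genes tested in both tables, the response differed for 15 at an adjusted p under 0.05 (0.153%, limma interaction term), the log2 change with w1118 minus that with dATF-2KO fathers being positive for 7 (0.0714%) and negative for 8 (0.0816%). At an unadjusted p under 0.05 it differed for 1139 genes (11.6%). Among the 15 were 9 of the 109 genes called with w1118 fathers that could be tested.

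tim, Rh5 and Rh3 were among the genes whose fall with restrained w1118 fathers had no counterpart with dATF-2KO fathers. tim had a log2 change of -0.28 with w1118 fathers and 0.00 with dATF-2KO fathers, a difference of -0.28 (standard error 0.05, adjusted p = 0.0142 from limma). Where fathers were dATF-2KO, tim spanned 128 to 137 FPKM in restrained libraries and 122 to 140 FPKM in unrestrained ones, which overlap. For Rh5 the changes were -0.21 and 0.01 (difference -0.22, standard error 0.04, adjusted p = 0.0142 from limma), and for Rh3 -0.12 and 0.00 (difference -0.12, standard error 0.02, adjusted p = 0.0197 from limma). CG14186 had the smallest p of all, with changes of -0.25 and 0.01 (difference -0.26, standard error 0.03, adjusted p = 0.00315 from limma). Differences for trpl and ninaC did not pass (-0.20 and -0.13, limma adjusted p = 0.101 and 0.182).

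Of the higher genes, His3.3B had changes of 0.32 with w1118 and 0.06 with dATF-2KO fathers (difference 0.27, standard error 0.04, adjusted p = 0.0100 from limma). For Rbp2 they were 0.39 and 0.11, for fend 0.40 and 0.05, and for Tis11 0.25 and -0.01 (differences 0.29, 0.35 and 0.27, limma adjusted p from 0.0142 to 0.0197). Ubpy, one of the lower genes, had changes of -0.23 and 0.02 (difference -0.24, limma adjusted p = 0.0142). The other 6 genes passed in neither table and moved in opposite directions. Pepck, which encodes the enzyme that commits carbon to gluconeogenesis, had log2 changes of 0.14 with w1118 and -0.14 with dATF-2KO fathers (difference 0.28, standard error 0.05, adjusted p = 0.0215 from limma). With w1118 fathers it was at 575, 557, 591, 554 and 545 FPKM in restrained and at 519, 500, 489, 522 and 538 FPKM in unrestrained libraries, so that the groups did not overlap.

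**Figure D4:**
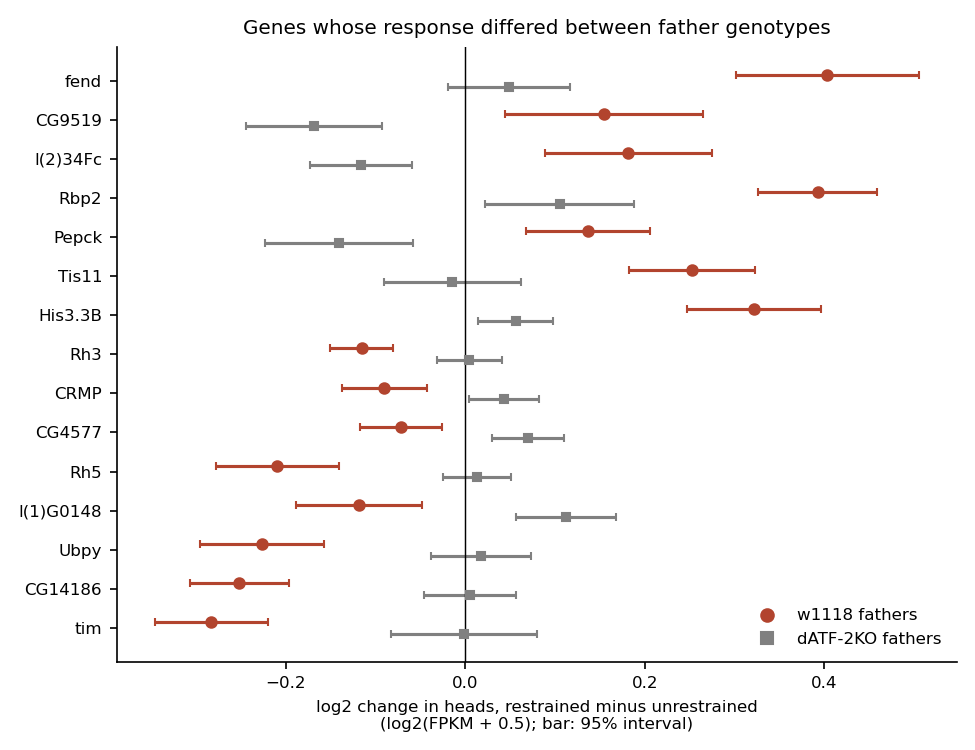
Log2 change in heads with its 95% interval (x axis, restrained minus unrestrained fathers, log2(FPKM + 0.5) scale) for the 15 genes whose response differed, with w1118 fathers as red circles above dATF-2KO fathers as grey squares. The circles lie farther from 0 than the squares in most genes, as in tim at -0.28 and 0.00, and on the other side of 0 in others, as in Pepck at 0.14 and -0.14.

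As the plot of both genotypes shows, the intervals of tim, Rh5 and Rh3 with dATF-2KO fathers include 0. The genes called with w1118 fathers, 9 of the 15 included, were also read with dATF-2KO fathers, in libraries that took no part in calling them. Of the 64 genes called higher with w1118 fathers, 63 had a positive log2 change with dATF-2KO fathers (median 0.08). Of the 45 called lower and tested there, 29 had a negative one (median -0.01). The sizes in both genotypes are not set against each other, since the genes were chosen by their change with w1118 fathers. Among the 109 genes 84.4% thus had the same sign, mostly through those called higher, against 55.1% of all 9808 genes. Of the 109, 32 (29.4%) had an unadjusted p under 0.05 (limma) with that sign and 0 with the other. Among all genes 10.5% reached that p with dATF-2KO fathers. Over all 9808 genes the log2 changes of both genotypes had a Pearson correlation of -0.03. cac had a log2 change of 0.14, Sh of 0.16, A2bp1 of 0.12, roX1 of 0.20, CR31451 of 0.34 and IM3 of 0.25 with dATF-2KO fathers (unadjusted p from 5.60e-04 to 0.00539, limma). CR34335 had one of 0.24 and noe one of 0.18. None of the 109 was called there (limma, 0 higher and 5 lower of 9975 at an adjusted p under 0.05, 1041 at an unadjusted p under 0.05), and the genes are not independent of each other. The greater share of X-linked genes among the higher ones was not seen with dATF-2KO fathers, where 5.28% of X-linked and 6.19% of other genes were higher at an unadjusted p under 0.05, and the difference between genotypes in these shares was not tested.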

How the data were processed

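The authors mapped reads to dm3 and deposited FPKM values per gene and library (the submitters' processing notes name CASAVA, TopHat2, Cufflinks and Cuffnorm; the sources used here give no versions, annotation or read filters), scaled within each of 4 tables. The same tables hold the authors' own comparison (a mean of the restrained group, a ratio, p-values, false discovery rates and q-values), which was not used. In another deposited table, 12 columns have names that show no sample, and they were not used. The study's methods name poly(A) selection and a stranded total RNA kit, the labels another kit. Read counts are unknown, so no counting interval is given.

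log2(FPKM + 0.5) of genes averaging at least 1 FPKM (9924 of 15061) was tested with limma 3.58.1 in R 4.3.3 with a mean-variance trend and Benjamini-Hochberg adjustment, at an adjusted p under 0.05 with and without a 1.4-fold limit. Fold changes on this scale understate changes of low genes. The interaction of genotype and restraint was fitted over 20 head libraries. The 5 genes listed under a date stayed in. The scripts were tested on simulated data. Members of the 58 gene lists, markers and tests were chosen with earlier results of these data known. Genes named were those past both thresholds, the 15 largest changes in each direction, the 5 genes of a list, or fewer, that ranked first by adjusted p, all members of short lists named in full, genes the study names, and those with the largest difference between genotypes. A subset of these is described, with exceptions stated. Loci are the deposited bundles, which can span overlapping genes, with starts raised by 1. Alternatives were pseudocounts of 0.1 and 1, no filter, a minimum of 5 FPKM, 3 other scalings, robust and weighted fits, a replicate block, covariates and each library left out. List and chromosome counts under other scalings and without unrestrained replicate 3 were chosen after seeing the data.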

Additional observations from a re-analysis of the deposited data

Results flagged for a closer look

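In 25 of 180 groups of 5 libraries examined (13.9%), 1 library lay far from the other 4 by Dixon's criterion. For independent groups chance gives about 1 in 20. The groups were those of the genes described here and of the FPKM sums. Many of these genes were picked for their changes, and they are not independent, so the share cannot be set against that rate. In 16 of the 25 it was unrestrained replicate 3. This library was low for fne (34.8 FPKM, group median 43.0), Acf1 (3.56, 4.65), scrt (21.3, 25.9), dnc (26.6, 33.5), elav (31.2, 38.2), brat (9.08, 10.8), wech (10.4, 11.8), A2bp1 (45.0, 49.4), cac (28.7, 32.8), SK (41.5, 43.1) and vri (59.5, 66.2 FPKM). It was high for snoRNA:MeU5-C46 (78.4 FPKM, group median 59.4), Ubpy (144, 130), Rh6 (431, 420), Eaat2 (170, 159) and CRMP (78.1, 74.0 FPKM). Restrained replicate 4 was high for ninaE (20404 FPKM, group median 19757), Rh2 (217, 204.8) and cry (180, 169 FPKM). Restrained replicate 3 was high for Syp (132 FPKM, group median 126) and restrained replicate 5 for l(1)G0148 (12.2 FPKM, group median 11.3). Unrestrained replicate 1 was high for Rh3 (784 FPKM, group median 769) and spz3 (3.77, 3.25), unrestrained replicate 2 was high for TotA (1199, 977), and unrestrained replicate 4 was low for IM3 (3321, 3747 FPKM).

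The head response differed between w1118 and dATF-2KO fathers by limma's interaction term for 15 genes (adjusted p from 0.00315 to 0.0451). The log2 change with w1118 fathers minus that with dATF-2KO fathers was 0.35 for fend, 0.32 for CG9519, 0.30 for l(2)34Fc, 0.29 for Rbp2, 0.28 for Pepck, 0.27 for His3.3B and 0.27 for Tis11. It was -0.28 for tim, -0.26 for CG14186, -0.24 for Ubpy, -0.23 for l(1)G0148, -0.22 for Rh5, -0.14 for CG4577, -0.13 for CRMP and -0.12 for Rh3.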

How the results depend on the processing

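The number of genes past the 1.4-fold limit, 5 higher and 4 lower, was 3 higher with quantile normalization, 8 lower with the FPKM sums set equal, 2 and 0 with the accessory gland covariate and 3 and 0 with the testis covariate. Without the limit, 64 higher and 46 lower genes became 115 and 82 with array quality weights, 18 and 15 with the accessory gland covariate and 34 and 21 with the testis covariate, and 248 lower with the FPKM sums set equal, which moved the median of all genes to -0.04. The 15 genes that differed between genotypes became 8 with the FPKM sums set equal. With a library left out these counts ranged from 2 to 5, 0 to 4, 20 to 89, 21 to 52 and 9 to 20. Of 1910 recomputed changes of single genes 1 called change reversed, IM4 at -0.037 with quantile normalization. Whether libraries of the same number are paired is not stated, though the study says that it compared offspring of sibling parents. Correlations of same-numbered deviations ran from -0.03 to 0.14, and only replicate 3 correlated best with its own number. These weak correlations do not settle whether the libraries are paired. With the replicate block 0 genes passed higher and 0 lower, with or without the fold limit, and 0 differed between genotypes (limma, 1266 genes at an unadjusted p under 0.05). FPKM without read counts gives no counting error, so the precision of low genes is unknown.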
